A study of Mus musculus with 9 samples.

Results

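Adipocyte genes were read in the proximal colon of 9 mice, as a reading of the fat tissue content of each sample. The 10 genes were Fabp4, Adipoq, Cfd, Plin1, Cidec, Retn, Lpl, Pparg, Car3 and Lep. Every probe set of the array annotated with one of these symbols and no other symbol was taken. Probe sets were named for 8 of the 10 genes, out of 12393 gene symbols on the array, and none was named Cfd or Plin1 alone. The 691 probe sets with several symbols were not searched for the 10 genes, so a shared probe set of Cfd or Plin1 would have been missed. The 8 genes had 13 probe sets, of which 11, for 7 genes, were bright enough to be tested. The mice were 3 cSHMT mutants, 3 cSHMT heterozygotes and 3 wild-type animals, where cSHMT is cytosolic serine hydroxymethyltransferase, the folate enzyme encoded by Shmt1. All 9 shared the C57Bl/6 background after 10 generations of backcrossing, an age of 9 weeks and a diet without folate and choline from weaning at 3 weeks of age, so no group ate a diet with folate. How long they ate it is stated as 6 weeks in the characteristics of the samples, while the growth protocol has 5 weeks. The labels do not describe the mutated allele, the sex of the mice, or whether fat was trimmed from the gut. The colons were flushed, opened lengthwise and rinsed, and each array carries the RNA of a separate colon.

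White adipocytes store triglyceride in a large lipid droplet and release fatty acids and hormones. The nuclear receptor PPAR gamma, encoded by Pparg, drives adipocyte formation together with C/EBP transcription factors, and many of the other genes listed here are among its targets in fat. In mice, a cord of mesenteric fat runs along the attached edge of the colon. Several of the genes are also used outside fat: Pparg in the colon epithelium, Fabp4 in capillary endothelium and macrophages, Lpl in muscle and macrophages, and Car3 in skeletal muscle. Adipoq, Plin1, Cidec and Lep are the more defining adipocyte genes among the 10.

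The promoters of 4 of the genes are shown because these genes are typical of fat and had their lowest signal in the same colon. For Lep, too dim to be tested, the lowest colon is uncertain (10.5 in mutant 1 and 11.6 in wild-type 1). They are RefSeq sequences of assembly GRCm38.p6 from 250 bases before to 50 bases after the annotated start, and capitals mark matches to the C/EBP motif TTGCNNAA on either strand.
Adipoq, chr16:23146286-23146585, plus strand: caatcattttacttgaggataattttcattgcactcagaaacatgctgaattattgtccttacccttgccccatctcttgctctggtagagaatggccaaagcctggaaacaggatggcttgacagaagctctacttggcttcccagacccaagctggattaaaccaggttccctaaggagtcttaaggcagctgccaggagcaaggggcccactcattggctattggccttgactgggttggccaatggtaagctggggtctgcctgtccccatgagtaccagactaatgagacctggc
Retn, chr8:3655520-3655819, plus strand: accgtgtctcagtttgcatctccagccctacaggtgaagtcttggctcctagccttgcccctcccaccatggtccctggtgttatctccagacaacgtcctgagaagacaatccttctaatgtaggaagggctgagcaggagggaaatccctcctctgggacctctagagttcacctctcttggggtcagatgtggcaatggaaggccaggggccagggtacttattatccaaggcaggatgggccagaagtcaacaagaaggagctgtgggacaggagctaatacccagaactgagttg
Cidec, chr6:113434715-113435014, minus strand: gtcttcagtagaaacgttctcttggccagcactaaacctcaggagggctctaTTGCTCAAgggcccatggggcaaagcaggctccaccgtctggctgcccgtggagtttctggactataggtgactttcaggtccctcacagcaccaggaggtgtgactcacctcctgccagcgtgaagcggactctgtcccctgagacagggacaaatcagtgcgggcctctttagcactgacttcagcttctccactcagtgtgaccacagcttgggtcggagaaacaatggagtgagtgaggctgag
Lep, chr6:29059971-29060270, plus strand: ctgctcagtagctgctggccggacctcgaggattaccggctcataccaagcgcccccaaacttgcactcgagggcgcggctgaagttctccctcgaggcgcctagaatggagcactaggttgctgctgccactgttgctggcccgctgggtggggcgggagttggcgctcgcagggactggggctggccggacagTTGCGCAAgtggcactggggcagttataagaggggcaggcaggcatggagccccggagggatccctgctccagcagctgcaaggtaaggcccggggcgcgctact
The C/EBP motif was found in the Lep and Cidec windows, beginning at positions -55 and -198 from the start, and not in the windows of Adipoq and Retn. A second Cidec window, at chr6:113435711-113436010, held no match and is not shown. At least 1 match lies in 10.8% of the 32851 promoters of this length. The PPAR response element, searched in its exact form and in a form with 1 free base in each repeat, lies in 0.0396% and 0.381% of all promoters on either strand and was in none of the 10 windows held for 7 of the genes. The TATA box TATAAA, read on the given strand, lies in 8.32% of all promoters and in none of these 4. A match describes these letters and does not show a bound site.

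The deposited values are linear signals, and the medians of the 9 arrays lay between 129.35 and 162.2. Array pairs correlated at 0.986 to 0.993 on the log2 scale. The Bacillus control probe sets, which should find no target, reached 10.9 at most. All 3 mutants read below all 3 wild-type mice on 4 of 4 Shmt1 probe sets, with mutant means between 19.6% and 55.5% of wild-type. The ratio of 3' to 5' beta-actin probe sets, which is higher where RNA is shorter, was 4.84, 3.75 and 2.73 in mutants 1 to 3, 4.45, 3.05 and 2.57 in heterozygotes 1 to 3, and 5.02, 3.15 and 2.52 in wild-type mice 1 to 3. The colons numbered 1 had the highest ratio in every genotype.

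The 11 tested adipocyte probe sets read above the control signals in all 9 colons, and the main feature of their pattern was a single mouse. Mutant 1 had the lowest deposited signal of the 9 on 12 of the 13 probe sets, Pparg being the exception. Among the 11 tested probe sets it was lowest on 10, while it was lowest on 18.4% of all 13575 tested probe sets. On 9 of the 11 it lay at least 0.5 log2 units below every other array after normalization, a gap found on 0.39% of all tested probe sets. No difference between genotypes passed the test. The highest deposited signal lay in heterozygote 2 on 5 probe sets, in heterozygote 3 on 1 and in wild-type 1 on 7, while after normalization the highest value lay in heterozygote 2 on 7, in heterozygote 3 on 2 and in wild-type 1 on 4. In RNA from a piece of tissue, fewer cells of a type and less RNA per cell cannot be told apart.

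**Figure D1:**
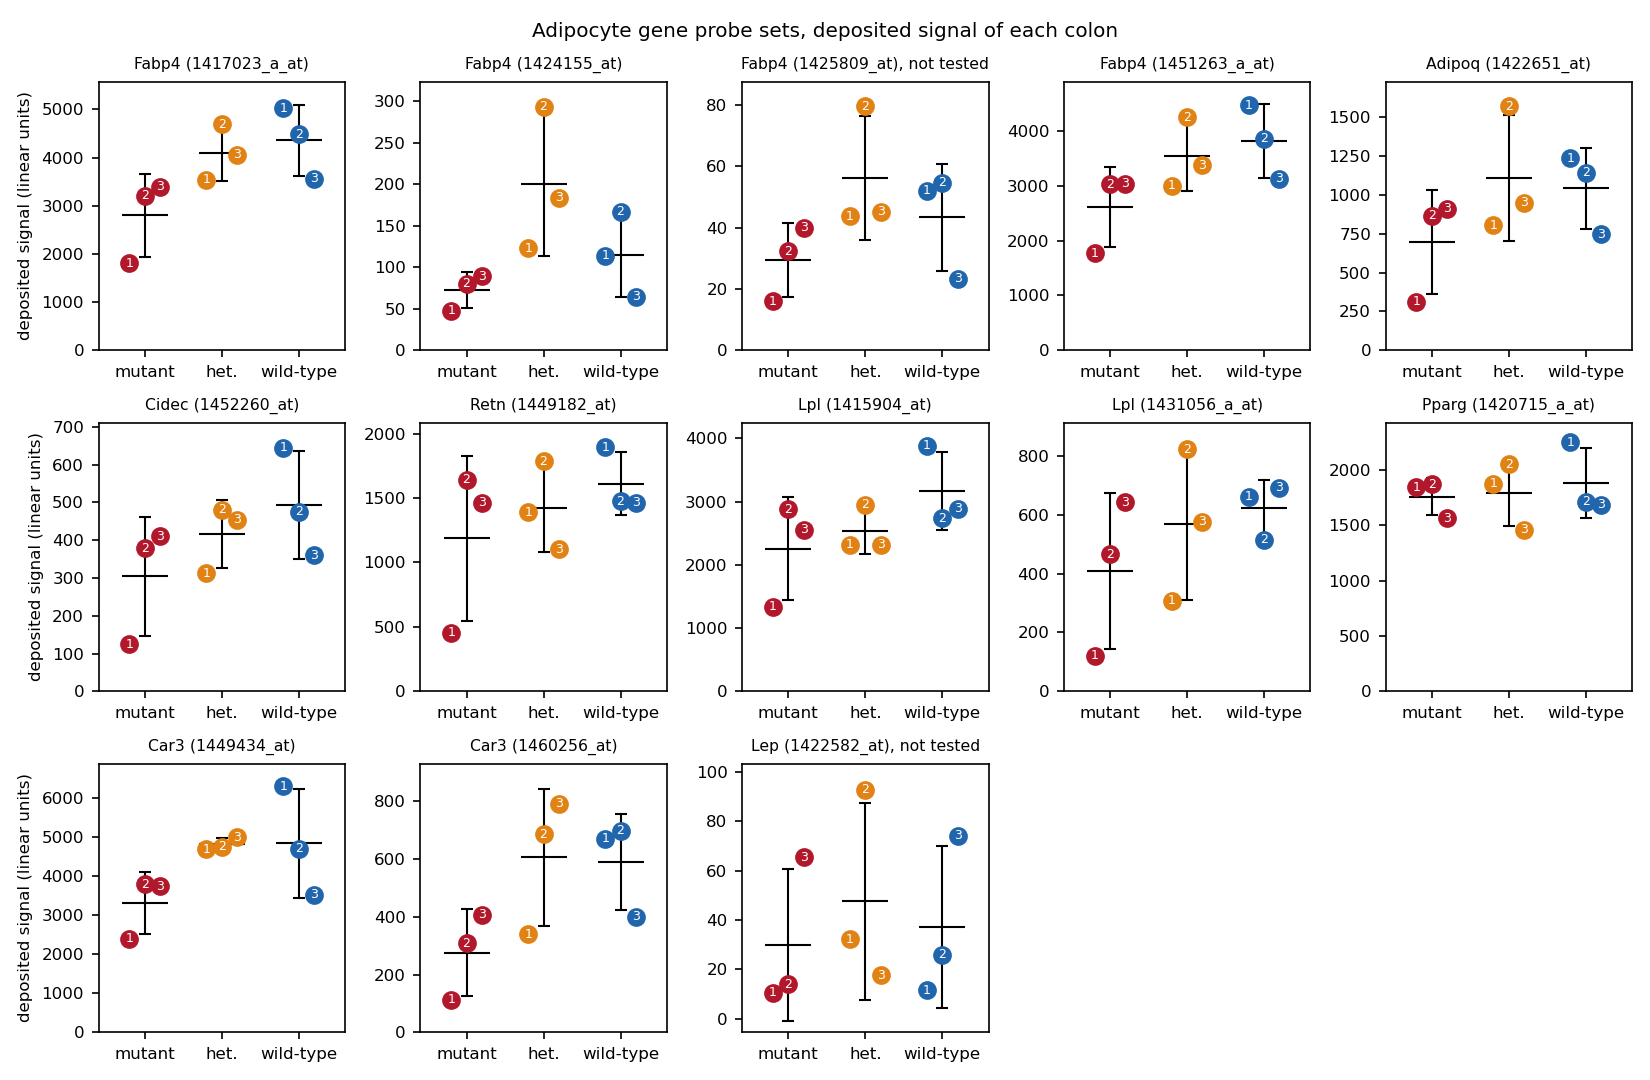
Deposited signal (vertical axes, linear units, each panel with its own scale) of the 13 adipocyte gene probe sets in 3 mutant, 3 heterozygous (het.) and 3 wild-type colons; numbered points are replicates, horizontal lines means and bars 1 SD. Mutant 1 is the lowest point in 12 panels, and in the Pparg panel it lies among the others.

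Adiponectin is a hormone secreted almost only by adipocytes. Its gene, Adipoq (1422651_at), had signals of 312.7, 865.0 and 909.8 in mutant colons, 803.0, 1566.2 and 947.7 in heterozygous colons, and 1233.1, 1140.5 and 747.3 in wild-type colons. Mutant 1 stood at 30.1% of the wild-type mean, while the other 2 mutants lay within the wild-type range. The signal averaged 696 ± 333 in mutant, 1106 ± 405 in heterozygous and 1040 ± 258 in wild-type colons (SD, n = 3 each). On the log2 scale, mutants minus wild-type was -0.66 (SE 0.35, 95% interval -1.43 to 0.12, adjusted p = 0.998, limma with Benjamini-Hochberg adjustment). It was -0.22 without mutant 1. Heterozygotes minus wild-type was 0.07, with an interval of -0.71 to 0.84.

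Resistin, another secreted product of mouse adipocytes, is encoded by Retn. The Retn probe set (1449182_at) read 454.9, 1640.4 and 1463.6 in mutants, 1389.8, 1783.9 and 1103.2 in heterozygotes, and 1895.5, 1476.7 and 1461.4 in wild-type mice. Mutant 1 stood at 28.2% of the wild-type mean, and mutants 2 and 3 together at 96.3% of it. The log2 difference between mutants and wild-type was -0.59 (SE 0.36, limma adjusted p = 0.998) with all arrays and -0.05 without mutant 1.

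Leptin, the hormone that reports fat stores to the brain, was at the edge of detection. Lep (1422582_at) read 10.5, 13.9 and 65.4 in mutants, 32.3, 92.9 and 17.6 in heterozygotes, and 11.6, 25.9 and 74.1 in wild-type mice. Mutant 1 was at the level of the control probe sets and wild-type 1 just above it. The groups overlapped fully, and the probe set was too dim to be tested.

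Cidec encodes a lipid droplet protein that lets droplets fuse into the large single droplet of white fat. Its probe set (1452260_at) read 124.6, 378.0 and 410.4 in mutants, 312.8, 479.9 and 453.8 in heterozygotes, and 644.9, 474.8 and 360.2 in wild-type mice. Mutant 1 stood at 25.3% of the wild-type mean, and the next colon upward had 2.51 times its signal. Mutants minus wild-type was -0.77 on the log2 scale (SE 0.34, 95% interval -1.52 to -0.02, unadjusted p = 0.0451, limma adjusted p = 0.998), and -0.33 without mutant 1. Adipoq and Cidec thus read 312.7 and 124.6 or more in every colon, against at most 10.9 in the controls. This does not extend to the other defining genes. Lep read 10.5 in mutant 1, at the control level, and no probe set was named Plin1 alone.

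Fabp4 encodes the fatty acid carrier of the adipocyte cytosol and had 4 probe sets. The brightest (1417023_a_at) read 1812.9, 3203.0 and 3393.6 in mutants, 3540.5, 4694.0 and 4061.9 in heterozygotes, and 5022.7, 4487.6 and 3556.4 in wild-type mice. All 3 mutants lay below all 3 wild-type mice here, and also below all 3 heterozygotes before normalization. Means were 2803 ± 863 in mutant, 4099 ± 578 in heterozygous and 4356 ± 742 in wild-type colons (SD, n = 3 each). Mutants minus wild-type was -0.60 in log2 units (SE 0.23, 95% interval -1.11 to -0.10, unadjusted p = 0.0233, limma adjusted p = 0.998). The value was -0.28 without mutant 1, and mutants 2 and 3 averaged 75.7% of the wild-type mean.

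The second bright Fabp4 probe set (1451263_a_at) read 1769.9, 3020.7 and 3030.0 in mutants, 2999.7, 4246.7 and 3367.4 in heterozygotes, and 4463.3, 3849.6 and 3125.3 in wild-type mice. The log2 difference between mutants and wild-type was -0.50 (SE 0.22, unadjusted p = 0.0419, limma adjusted p = 0.998), or -0.22 without mutant 1. Mutants and wild-type did not overlap as deposited and overlapped after normalization, while mutants and heterozygotes overlapped in both.

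A dim Fabp4 probe set (1424155_at) had a different order of genotypes. It read 48.0, 80.3 and 89.3 in mutants, 122.7, 293.1 and 184.0 in heterozygotes, and 114.2, 166.8 and 64.8 in wild-type mice. Heterozygotes were highest, with all 3 above all mutants and their range overlapping wild-type. Mutants minus heterozygotes was -1.21 on the log2 scale (SE 0.32, 95% interval -1.91 to -0.50), the largest difference of any adipocyte probe set in that comparison. It did not pass (unadjusted p = 0.00302, limma adjusted p = 0.485), and was -1.05 without mutant 1. The fourth Fabp4 probe set (1425809_at), between 16.1 and 79.5 over the 9 colons, was too dim to be tested, with mutant 1 lowest and heterozygote 2 highest.

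Lipoprotein lipase, the product of Lpl, frees fatty acids from circulating triglyceride for uptake. The brighter Lpl probe set (1415904_at) read 1334.4, 2880.6 and 2551.4 in mutants, 2319.9, 2949.9 and 2316.4 in heterozygotes, and 3881.6, 2734.0 and 2884.2 in wild-type mice. Mutants minus wild-type was -0.48 in log2 units (SE 0.24, limma adjusted p = 0.998), and -0.14 without mutant 1. The other Lpl probe set (1431056_a_at) read 120.6, 465.8 and 641.4 in mutants, 308.0, 821.7 and 576.2 in heterozygotes, and 660.6, 514.3 and 691.1 in wild-type mice. Its log2 difference was -0.84 (SE 0.45, limma adjusted p = 0.998), or -0.23 without mutant 1. On this probe set mutant 1 was at 19.4% of the wild-type mean, against 42.1% on the brighter one, so the size of the gap depended on the probe set while its direction did not.

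Car3, carbonic anhydrase 3, is an abundant cytosolic enzyme of adipocytes and of skeletal muscle. The brighter Car3 probe set (1449434_at) read 2401.9, 3797.1 and 3747.9 in mutants, 4689.6, 4765.3 and 5005.6 in heterozygotes, and 6308.6, 4705.2 and 3530.4 in wild-type mice. Here the mutants lay below all heterozygotes, with a log2 difference of -0.57 (SE 0.20, unadjusted p = 0.0149, limma adjusted p = 0.62), while they overlapped wild-type. Mutants minus wild-type was -0.46 (SE 0.20, unadjusted p = 0.0407, limma adjusted p = 0.998), and -0.19 without mutant 1.

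The other Car3 probe set (1460256_at) read 113.2, 307.3 and 407.5 in mutants, 339.0, 684.8 and 789.8 in heterozygotes, and 670.1, 697.7 and 399.7 in wild-type mice. Its log2 difference of -1.16 between mutants and wild-type was the largest of the 11 in that comparison (SE 0.38, 95% interval -2.0 to -0.32, unadjusted p = 0.0109, limma adjusted p = 0.998). Without mutant 1 it was -0.73, still the largest of the 11, with mutants 2 and 3 averaging 60.7% of the wild-type mean. Muscle creatine kinase, Ckm, the one tested skeletal muscle gene of 6, read 96.7, 63.1 and 79.2 in mutants, 119.4, 59.2 and 58.2 in heterozygotes, and 94.9, 107.1 and 82.0 in wild-type mice, so mutant 1 was not low for it.

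Pparg, the gene of the receptor that drives fat cell formation, was the exception to the low reading of mutant 1. Its probe set (1420715_a_at) read 1841.6, 1870.1 and 1565.0 in mutants, 1876.5, 2051.1 and 1459.9 in heterozygotes, and 2251.1, 1710.6 and 1687.0 in wild-type mice. Mutant 1 was at 97.8% of the wild-type mean, and the lowest colon was heterozygote 3. Mutants minus wild-type was -0.09 on the log2 scale (SE 0.14, 95% interval -0.40 to 0.22, limma adjusted p = 0.998). The highest colon had 1.54 times the signal of the lowest, whereas this ratio was between 2.52 and 6.98 on the other tested adipocyte probe sets.

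Between genotypes, none of the 11 tested probe sets passed an adjusted p of 0.05 in any comparison. In mutants against wild-type, 0.0221% of all 13575 tested probe sets passed, and 5 of the 11 had an unadjusted p below 0.05, all with the mutants lower, as did 1.96% of all. Without mutant 1 that count was 1, Car3 (1460256_at), against 2.05% of all. The log2 differences of the 11 ran from -1.16 to -0.09 with a median of -0.59, and all 11 were negative, as were 49.0% of all tested probe sets, whose median was 0.0036. Without mutant 1 all 11 were still negative, against 48.0% of all, and their median was -0.22, against 0.0062 over all. On 2 of the 11, a Fabp4 and a Car3 probe set, the normalized values of mutants lay below those of wild-type without overlap, against 4.2% of all, and on none lay they above, against 4.23%. The probe sets share the 9 arrays and several share a gene, so these counts are not counts of independent results.

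In heterozygotes against wild-type, 8 of the 11 differences were negative, as were 51.0% of all. The median of the 11 was -0.04, against -0.0044 over all tested probe sets. Of all tested probe sets 0% passed the adjusted p in this comparison, and 3.54% had an unadjusted p below 0.05 with heterozygotes lower. None of the 11 adipocyte probe sets had such a p in either direction (1, Lpl 1415904_at, without mutant 1, against 3.58% of all), and the smallest limma adjusted p among them was 0.627. None of the 11 was free of overlap, whereas 7.42% of all probe sets lay wholly lower and 7.29% wholly higher in heterozygotes. In mutants against heterozygotes all 11 differences were negative, as were 49.6% of all, with a median of -0.57, against 0.0012 over all tested probe sets. Without mutant 1, 9 of the 11 were negative with a median of -0.17, against 48.8% of all. An unadjusted p below 0.05 was found for 4 of the 11, all with mutants lower, and for 3.51% of all probe sets in that direction, while 0.0221% of all passed the adjusted p. Without mutant 1 such a p was found for 2 of the 11, Fabp4 (1424155_at) and Car3 (1460256_at), against 3.06% of all. Mutants and heterozygotes did not overlap after normalization on 2 of the 11, against 6.09% of all with mutants lower and 6.35% with mutants higher. Each pair of comparisons shares a genotype, so the 3 are not independent of one another.

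**Figure D2:**
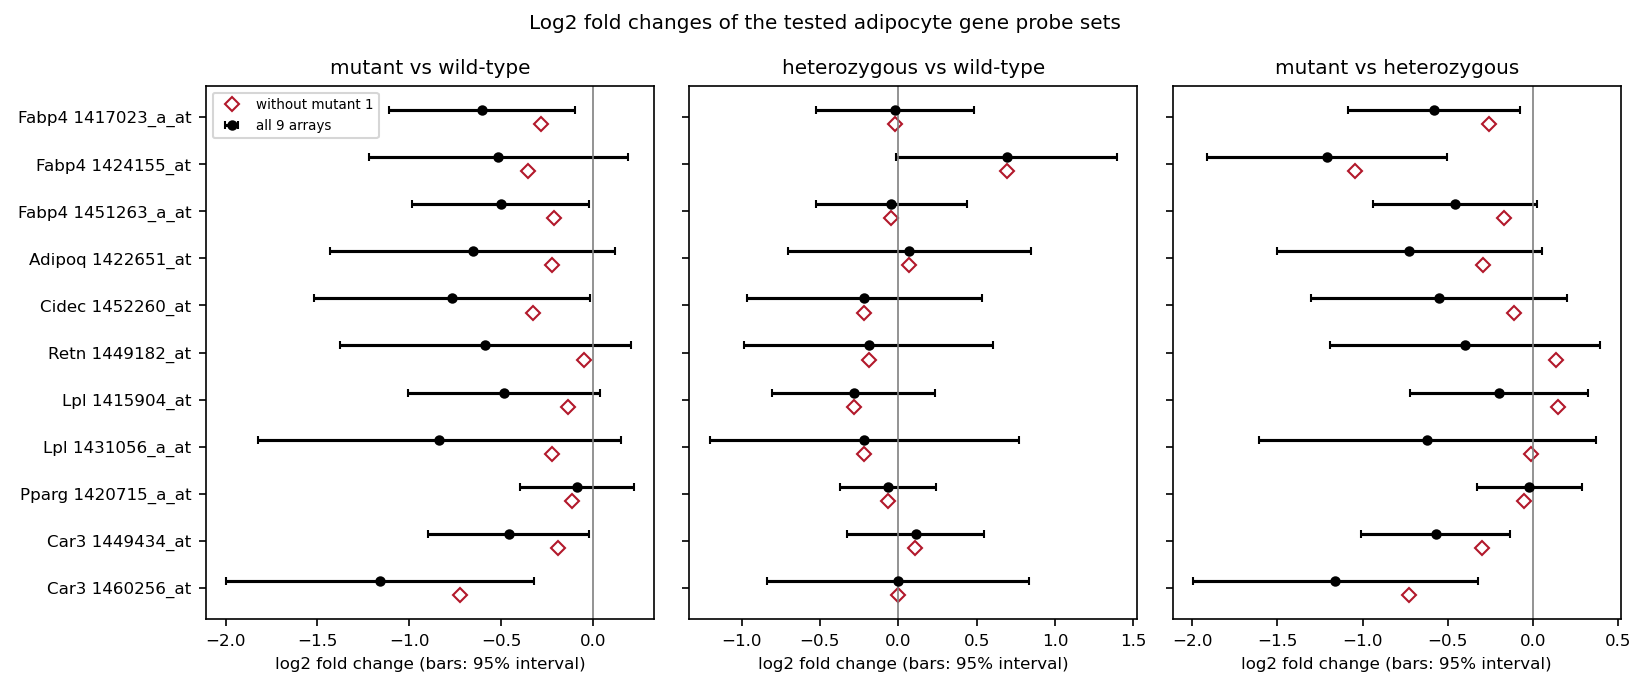
Log2 fold changes (horizontal axes, normalized scale) of the 11 tested adipocyte probe sets in the 3 comparisons; filled points use all 9 arrays with 95% intervals, and open diamonds leave mutant 1 out. In mutant vs wild-type all points lie at or below -0.09, and the diamonds lie nearer to 0 except for Pparg.

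The spread between mice of the same genotype was wide for these genes. The within-genotype SD on the normalized log2 scale had a median of 0.49 over the 11 probe sets, against 0.17 over all tested probe sets. It was above the 90th percentile of all tested probe sets for 9 of the 11, and reached 0.73 for Lpl (1431056_a_at), at the 99.4th percentile. Pparg, with 0.20, was at the 61.5th percentile. Without mutant 1 the median was 0.26, against 0.17 over all, and 5 of the 11 remained above the 90th percentile of that fit. These 5 were Fabp4 (1424155_at) with 0.51, Adipoq with 0.41, Cidec with 0.35, Lpl (1431056_a_at) with 0.44 and Car3 (1460256_at) with 0.48.

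The mean of the 7 tested genes, with the brightest probe set of each, was 9.72, 10.72 and 10.69 normalized log2 units in mutants 1 to 3, 10.64, 11.08 and 10.72 in heterozygotes 1 to 3, and 11.14, 10.90 and 10.66 in wild-type mice 1 to 3. Mutant 1 was lowest, and the other 8 colons lay within 10.64 to 11.14, with heterozygote 2 and wild-type 1 at the top. Over the 9 arrays the Pearson correlation of each probe set with the mean of the other genes was 0.96 for Adipoq and for Cidec, 0.91 for Retn and 0.21 for Pparg, given as a description over colons that share array and amplification. Without mutant 1 it was 0.88 for Adipoq, 0.83 for Cidec, 0.58 for Retn and 0.64 for Pparg, so over the other 8 colons Pparg was not set apart from the rest.

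Other genes of fat tissue were taken from 7 lists with 58 genes, of which 44 were tested. Mutants were below wild-type on 32 and above on 12, against 49.0% of all tested probe sets below. The median log2 difference was -0.15, and none passed the adjusted p (smallest 0.998). Without mutant 1, 26 of the 44 were below wild-type, against 48.0% of all, and the median was -0.06. Heterozygotes were below wild-type on 23, against 51.0% of all, with a median of -0.01. Mutants were below heterozygotes on 28, against 49.6% of all, with a median of -0.13, and here again none passed the adjusted p in limma. After normalization mutant 1 was the lowest colon for 18 of the 44, against 12.3% of all tested probe sets. It lay at least 0.5 log2 units below every other array for 4, against 0.39% of all. The share of 49.0% also stands beside the counts of single lists below.

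Among genes of lipid droplets and lipolysis, 4 of 7 were lower in mutants than in wild-type (median -0.20) and none passed. Plin4, a droplet coat protein related to Plin1, read 57.8, 69.0 and 85.4 in mutants, 118.9, 170.4 and 96.2 in heterozygotes, and 105.3, 137.6 and 106.5 in wild-type mice. All 3 mutants lay below all other mice for Plin4, with a log2 difference from wild-type of -0.61 (unadjusted p = 0.0117, limma adjusted p = 0.998) that was -0.56 without mutant 1. Lipe, hormone-sensitive lipase, differed by -0.20 and Abhd5, a cofactor of triglyceride lipase, by -0.21. Mgll, monoglyceride lipase, differed by 0.18.

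For fatty acid and glucose uptake and esterification, 6 of 9 genes were lower (median -0.15) and none passed. The fatty acid transporter Cd36 read 519.0, 1002.5 and 862.0 in mutants, 1002.1, 1247.7 and 977.7 in heterozygotes, and 1203.3, 1003.7 and 861.4 in wild-type mice, and so resembled Adipoq in having mutant 1 alone at the bottom. The insulin-responsive glucose transporter Slc2a4 differed by -0.22 between mutants and wild-type, Pck1 of glyceroneogenesis by -0.27 and Lpin1, a phosphatidate phosphatase, by -0.15. For lipogenesis 4 of 6 were lower (median -0.06), but without mutant 1 only 1 of 6 was (median 0.19). Thrsp, a lipogenic nuclear protein abundant in fat, read 409.1, 1455.5 and 1733.5 in mutants, 1214.5, 1848.9 and 1195.7 in heterozygotes, and 1758.8, 1196.8 and 1208.8 in wild-type mice. Its log2 difference between mutants and wild-type was -0.36 with all arrays and 0.23 without mutant 1. Fasn, fatty acid synthase, differed by -0.29, while Acly and Elovl6, which supply acetyl-CoA and lengthen fatty acids, differed by 0.09 and 0.15. The Acly value is that of its brightest probe set, and the probe sets of this gene were not alike. On a second Acly probe set mutant 1 lay 0.63 log2 units below every other array, at 40.5% of the wild-type mean.

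Of other adipokines 5 of 6 were lower (median -0.22) and none passed. Retnla, a relative of resistin, differed by -0.47, Angptl4, an inhibitor of lipoprotein lipase, by -0.45, Nampt by -0.29 and Rarres2, the chemerin gene, by -0.14. Of other adipocyte-enriched genes 6 of 6 were lower (median -0.31), and 5 of 6 without mutant 1 (median -0.12). Mrap, which carries the melanocortin receptor of the adrenal and fat cell to the membrane, read 22.9, 67.3 and 150.3 in mutants, 59.5, 137.4 and 77.6 in heterozygotes, and 107.1, 75.3 and 119.8 in wild-type mice. Adig differed by -0.42, Nnat by -0.50 and Fah by -0.20.

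Of 7 transcription factors of fat cell formation, 5 were lower with a median of -0.11, with Cebpa at -0.11, Cebpb at -0.19, Cebpd at -0.24 and the PPAR partner Rxra at -0.16, and none passed. Of 3 receptor genes 2 were lower (median -0.0001). The leptin receptor Lepr read 83.5, 103.8 and 70.4 in mutants, 163.2, 216.3 and 216.8 in heterozygotes, and 124.2, 119.8 and 105.1 in wild-type mice. The 3 genotypes did not overlap for Lepr, with heterozygotes highest, and mutants minus heterozygotes was -1.03 (limma adjusted p = 0.178). The adiponectin receptors Adipor1 and Adipor2 differed between mutants and wild-type by -0.0001 and 0.02.

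Of 7 brown fat genes named on the array, 4 were too dim to be tested. Ucp1, the uncoupling protein that defines brown fat, read between 2.0 and 6.6, and Elovl3 between 2.6 and 7.6, both under the highest control signal of 10.9. Cidea lay between 9.3 and 18.8, and Dio2 between 7.6 and 45.4, above 10.9 in every colon except heterozygote 1. The 3 tested genes of that list, which are also used outside brown fat, differed by -0.47 for Cox8b, 0.30 for Cox7a1 and -0.21 for Ppargc1a between mutants and wild-type.

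Of 15 tested relatives of the adipocyte genes, several of them genes of the gut epithelium, 0 lay 0.5 log2 units or more below every other array in mutant 1. Over all tested probe sets this share was 0.39%, so a count of 0 among 15 is near it. Of the 15, 9 were lower in mutants (median -0.03) and none passed. Fabp2, the intestinal fatty acid carrier, read 8341.4, 6901.8 and 5958.7 in mutants, 7529.0, 5858.7 and 6142.8 in heterozygotes, and 8732.2, 6519.9 and 6414.7 in wild-type mice. Besides Plin4 and Retnla, the relatives with the smallest p were Cideb, a droplet protein of liver and gut, at 0.42, and Ppara, the fatty acid sensing receptor, at -0.28.

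Markers of other cells of the gut wall were set beside this pattern. The mean of the adipocyte genes in mutant 1 lay 1.18 log2 units below the wild-type average (-1.18), while in the other 8 colons it lay between -0.26 and 0.24. On the other fat lists mutant 1 was less low. It was at -0.55 for lipogenesis (others -0.23 to 0.25) and -0.53 for other adipocyte-enriched genes (-0.35 to 0.19). Uptake and esterification was at -0.37 (-0.08 to 0.14), other adipokines at -0.41 (-0.41 to 0.32) and lipid droplets at -0.28 (-0.21 to 0.08). Transcription factors were at -0.21 (-0.12 to 0.08) and receptors at -0.04 (-0.29 to 0.24). For the mesothelium, the sheet that covers gut and mesentery, mutant 1 was at 0.03, within the range of -0.42 to 0.03 of the others. For endothelium it was at 0.02 (others -0.18 to 0.14), for smooth muscle at 0.06 (others -0.27 to 0.10), for neurons and glia at -0.10 (others -0.25 to 0.17), and for fibroblasts and preadipocytes at -0.21 (others -0.32 to 0.07). For absorptive colonocytes mutant 1 was at 0.30, the highest of the 9 colons (others -0.34 to 0.19), but the genes of this list were not alike. In mutant 1 Aqp8 lay at 1.62, Scnn1a at 0.73, Slc26a3 at 0.40, Car4 at 0.13 and Vil1 at 0.09 from the wild-type average. Car1 lay at -0.02, Krt20 at -0.04, Guca2a at -0.05 and Cdh17 at -0.20. The share of mucosa, muscle and mesentery in each sample was not measured, and the part of tissue makeup in the pattern was not tested.

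Macrophages can also express Fabp4 and Lpl. All 9 tested macrophage markers of 10 were lower in mutants than in wild-type with a median of -0.26, none past the adjusted p, and their mean lay at 8.67 to 8.95 in mutant, 8.83 to 9.17 in heterozygous and 8.89 to 9.28 in wild-type colons. The dimmest of the markers named here, Cd68, was still between 63.5 and 162.3. Mutant 1, at -0.12 from the wild-type average, was the highest of the 3 mutants for this list and the lowest of the 3 for the adipocyte genes. Lyz2 differed by -0.36, Cd68 by -0.44, C1qa by -0.26 and Adgre1 by -0.32. The part of macrophages in the Fabp4 and Lpl values was not tested.

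For the remaining lists, 3 of 3 mesothelial genes were lower in mutants (median -0.04), including Upk3b at -0.01, Wt1 at -0.04 and Gpm6a at -0.10. Of fibroblast and preadipocyte genes 7 of 8 were lower (median -0.11), with Dcn at -0.32, Col3a1 at -0.35, Dpp4 at -0.16 and Cd34 at -0.15. Of endothelial genes 5 of 6 were lower (median -0.06), with Emcn at -0.20, Tek at -0.11, Vwf at -0.09 and Eng at 0.30. Smooth muscle had 6 of 9 lower (median -0.01), with Myh11 at -0.13, Tagln at -0.13, Mylk at 0.08 and Smtn at 0.13. Absorptive colonocyte genes were lower on 4 of 9 (median 0.04), with Scnn1a at 0.48, Aqp8 at 0.53, Cdh17 at 0.24 and Guca2a at -0.04. Enteric neuron and glia genes were lower on 2 of 3, with Elavl4 at -0.19, Uchl1 at -0.19 and Sox10 at 0.07. Of these lists no gene passed the adjusted p. The 2 tested lymphocyte genes were the T cell receptor subunits Cd3e at -0.22 and Cd3d at -0.82, and none of the 5 pancreas genes named on the array was bright enough to be tested.

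**Figure D3:**
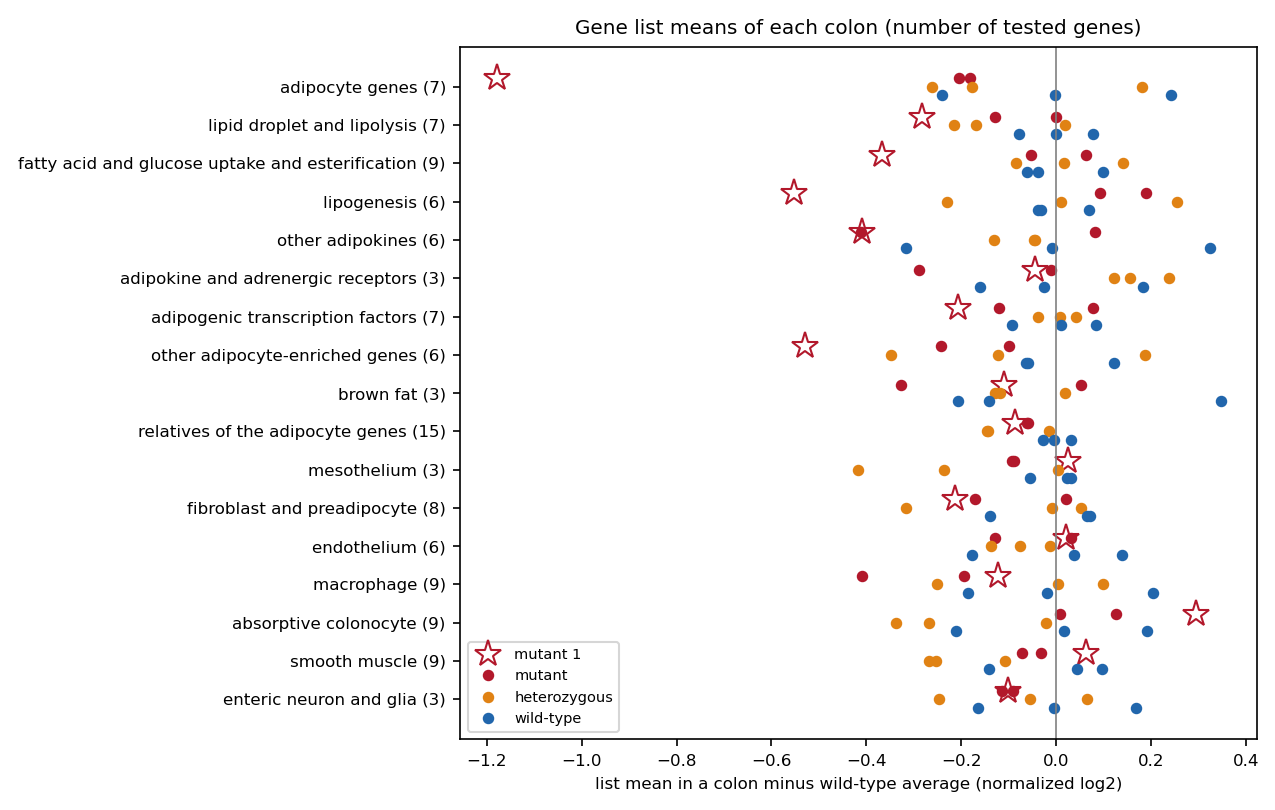
Mean normalized log2 value of each gene list in each colon minus the average of the 3 wild-type colons (horizontal axis), for lists with at least 3 tested genes (number in brackets); dots are colons coloured by genotype and the open star is mutant 1. The star lies at -1.18 for the adipocyte genes, apart from the other 8 colons between -0.26 and 0.24. It lies between -0.55 (lipogenesis) and -0.04 (receptors) for the other lists of fat tissue genes, and within the range of the others for endothelium and smooth muscle.

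RNA shortening was set beside the values in the same way. Mutant 1 had a 3' to 5' ratio of 4.84 for beta-actin and 2.26 for Gapdh, while wild-type 1 had 5.02 and 2.90 and heterozygote 1 had 4.45 and 2.18. Wild-type 1 had the highest ratios of the 9, and it had the highest adipocyte value on 7 of the 13 probe sets as deposited and on 4 after normalization. Heterozygote 1 read 803.0 for Adipoq and 312.8 for Cidec, at 77.2% and 63.4% of wild-type averages. Over the tested adipocyte probe sets it ran from 49.5% (Lpl 1431056_a_at) to 106.4% (Fabp4 1424155_at), with Car3 1460256_at at 57.5%. On the mean of the 7 tested genes heterozygote 1 was the lowest colon after mutant 1, at 10.64 against 9.72 normalized log2 units. The median signal of mutant 1, 130.6, was near the low end of the 9 arrays, and its gap on the adipocyte genes was measured after the arrays had been brought to the same distribution. Mutant 1 also had the highest signal of the 9 arrays on the 3 control probe sets for 18S ribosomal RNA. The middle one read 4155.4, 2308.8 and 2775.3 in mutants, 3113.3, 2297.9 and 2189.4 in heterozygotes, and 2866.7, 2393.2 and 2845.5 in wild-type mice. The part of RNA length and RNA composition in the adipocyte values was not tested.

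Of 12474 other tested probe sets with a single gene symbol, those most like the adipocyte genes were found by the Pearson correlation of their normalized values with the mean of the 7 genes over 9 arrays. The 10 highest were Cd34 (0.97), Cd36 (0.94), Wdr12 (0.94), Scara5 (0.93), Thrsp (0.92), Tcn2 (0.90), Nprl2 (0.90), Dpm1 (0.90), Hp (0.89) and Zfp746 (0.89), while the 99th percentile of all was 0.76. Cd34 marks fibroblast-like progenitors and endothelium, and read 429.3, 572.0 and 600.2 in mutants, 531.2, 630.0 and 612.4 in heterozygotes, and 573.7, 628.6 and 564.3 in wild-type mice. Scara5, a ferritin receptor, read 54.3, 141.7 and 125.9 in mutants, 107.6, 214.8 and 138.9 in heterozygotes, and 148.5, 178.4 and 106.1 in wild-type mice. Its correlation was 0.88 without mutant 1, that of Cd34 was 0.91 and that of Cd36 0.83. For Hp, the haptoglobin gene, it was 0.43 without mutant 1, and for Thrsp 0.60.

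When mutant 1 was left out of the ranking, the 10 highest were Ttc17 (0.99), Tax1bp1 (0.95), Cd3e (0.94), Mndal (0.93), Zmat5 (0.92), Ets1 (0.92), AU020206 (0.91), Mocos (0.91), Grina (0.91) and Cxcr6 (0.91), with a 99th percentile of 0.79. None of these 10 was among the 10 found over all arrays. Over all 9 arrays Cd3e had a correlation of -0.06, since mutant 1 read 1329.2 for this T cell gene, the highest of the 9 colons. The other subunits did not share this high reading. In mutant 1, Cd3d read 159.6, against 203.3 to 245.9 in wild-type mice. Cd3g, too dim to be tested, read 49.1 there, against 80.7 to 96.4 in wild-type mice. The genes most like the adipocyte genes thus differed with and without mutant 1.

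**Figure D4:**
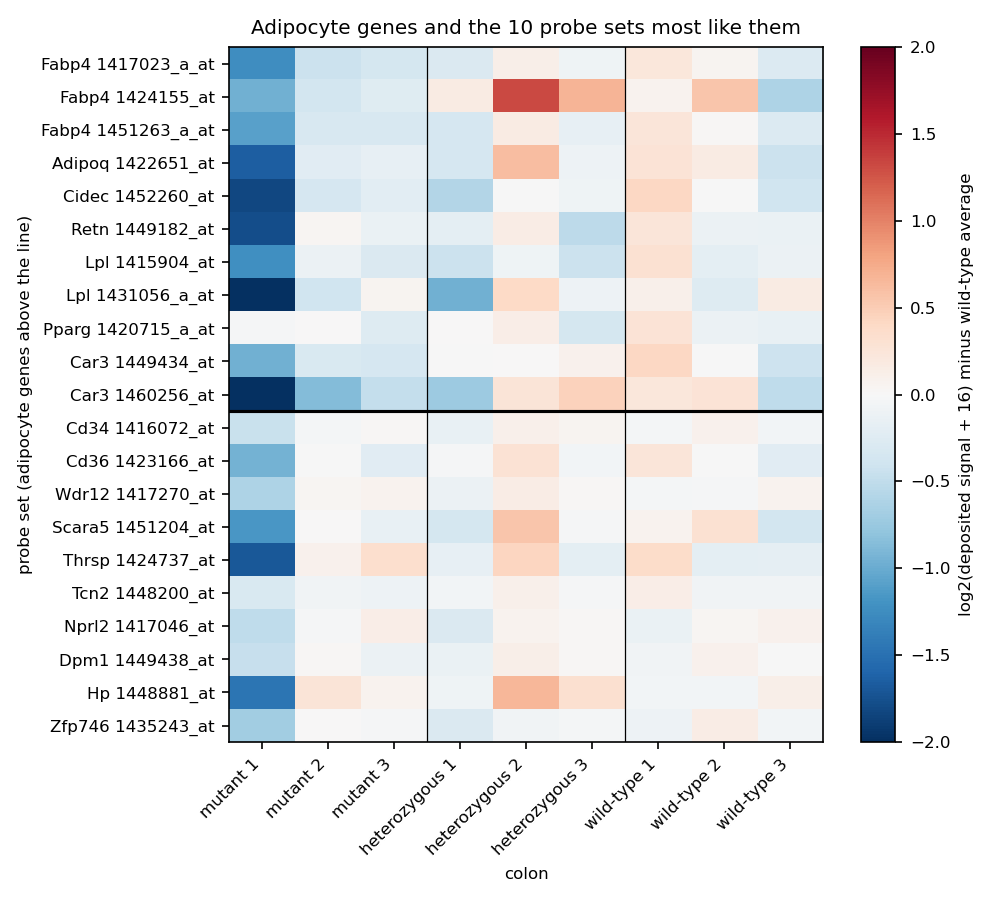
Log2 of deposited signal plus 16, minus the wild-type average of the same probe set (colour, limits -2 and 2), for the 11 tested adipocyte probe sets (above the line) and the 10 other probe sets most like them, in the 9 colons. The column of mutant 1 is blue for the adipocyte genes except Pparg, and paler for Cd34 and Tcn2 than for Thrsp and Hp.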

How the data were processed

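Total RNA of the proximal colon of 9 mice, 3 per genotype and labelled as biological replicates, was measured on Affymetrix arrays after amplification of about 50 ng of RNA. The authors deposited 1 linear intensity per probe set and array. GCOS is named in the submitters' processing notes; for its version and scaling, the sources used here give nothing. Precision is limited by the number of arrays.

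From these, log2(signal + 16) was computed and quantile normalized over 9 arrays; the added 16 shrinks differences of dim probe sets. The 64 control probe sets were left out, as were probe sets at or under the 40th percentile of mean signal (linear 77.14), which left 13575 of 22626. Signals in the text are deposited values, and fold changes, SEs, gaps and correlations are on the normalized scale. Gene symbols come from the platform annotation, which can be old: 20380 probe sets have 1 symbol, 691 several and 1555 none here.

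All 9 arrays were fitted together with limma 3.58.1 (lmFit and eBayes with a trend, R 4.3.3, two-sided), with Benjamini-Hochberg adjustment over all tested probe sets in each comparison and a threshold of 0.05. The fit was tested on simulated data with independent noise and the same added change in every mutant. That setting does not cover a pattern carried by a single mouse. For lists, the brightest probe set of each gene was used.

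The genes, lists and tests were chosen with earlier results of these data known. Of each list, up to 4 genes with the smallest unadjusted p in mutants against wild-type are named, and of likeness rankings the first 10. Some genes were named beyond this rule, after their values were seen. Apart from those under the other observations, they were Fabp2, Ucp1, Elovl3, Cidea, Dio2, Slc26a3, Car4, Vil1, Car1, Krt20 and Cd3g. Alternatives were 21 settings. Figures were drawn with Python 3.11.15 and matplotlib 3.10.9. No promoter sequence was used for Fabp4, Lpl and Car3.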

Additional observations from a re-analysis of the deposited data

How the results depend on the processing

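The log2 fold changes of the adipocyte probe sets were computed again under 21 other settings, giving 690 values, of which 657 kept their direction and 33 turned it; none passed an adjusted p of 0.05. The smallest adjusted p was 0.118 in mutants against wild-type (Car3 1460256_at, array weights), 0.345 in heterozygotes against wild-type and 0.187 in mutants against heterozygotes (both Fabp4 1424155_at, replicate block). Turned values numbered 3 of 230 in mutants against wild-type, 22 in heterozygotes against wild-type and 8 in mutants against heterozygotes, and their cause was not tested.

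In mutants against wild-type, leaving out 1 array gave Pparg values of -0.15 to 0.021. Array weights gave Pparg 0.035 in that comparison. Without the 3 arrays numbered 1, Retn was 0.056. In mutants against heterozygotes, leaving out 1 array gave -0.71 to 0.14 for Retn, -0.41 to 0.14 for Lpl 1415904_at (both highest without mutant 1) and -0.17 to 0.091 for Pparg. Median centring gave Pparg 0.019, and leaving out the arrays numbered 1 gave Retn 0.13 and Lpl 1415904_at 0.056.

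In heterozygotes against wild-type, leaving out 1 array gave -0.15 to 0.14 for Fabp4 1417023_a_at, -0.21 to 0.12 for Fabp4 1451263_a_at, -0.21 to 0.24 for Adipoq, -0.46 to 0.049 for Cidec, -0.51 to 0.10 for Lpl 1431056_a_at, -0.18 to 0.077 for Pparg, -0.035 to 0.21 for Car3 1449434_at and -0.29 to 0.30 for Car3 1460256_at. Without the arrays numbered 1 the values were 0.14 for Fabp4 1417023_a_at, 0.14 for Fabp4 1451263_a_at, 0.17 for Cidec, 0.20 for Lpl 1431056_a_at, 0.014 for Pparg and 0.46 for Car3 1460256_at. Array weights gave 0.19 for Lpl 1431056_a_at and 0.046 for Pparg.

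Over all tested probe sets, 3 passed in mutants against wild-type, 0 in heterozygotes against wild-type (8.01% had an unadjusted p below 0.05 in limma) and 3 in mutants against heterozygotes. Array weights gave 9 and 95 in the comparisons with wild-type. With only the 2 genotypes compared, 5 passed in mutants against heterozygotes. Without the arrays numbered 1, 9 passed in mutants against wild-type and 7 in mutants against heterozygotes. Leaving out 1 array gave 2 to 4 in mutants against wild-type, 0 to 3 in heterozygotes against wild-type (3 without heterozygote 3) and 1 to 7 in mutants against heterozygotes: 7 without heterozygote 3, 6 without wild-type 3, 5 without wild-type 1, and 1 without heterozygote 1 or mutant 2.

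In the fit with a replicate block, 5 passed in mutants against wild-type and 11 in mutants against heterozygotes. Deviations of same-numbered arrays correlated at 0.29, 0.01 and 0.46 for mutants and wild-type, and 0.31, 0.03 and 0.41 for heterozygotes and wild-type. For mutants and heterozygotes they correlated at -0.05, -0.06 and 0.22. Between arrays of different number the ranges, in the same order, were -0.51 to 0.27, -0.37 to -0.003 and -0.22 to 0.23. The main fit did not pair the mice by number, and whether same-numbered arrays shared handling was not tested. The pseudocount and the dim probe sets limit what can be read from Lep and from Fabp4 1425809_at, and without mutant 1, 10 of the 11 tested probe sets had a smaller difference between mutants and wild-type.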

Other observations

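Probe sets that stood at least 0.5 log2 units below every other array in mutant 1 numbered 53 of 13575, and 9 of them were adipocyte probe sets. The named genes outside the list were 36 and were read after their values were seen. They included both Thrsp probe sets, with gaps of 1.48 and 1.36, Hp (haptoglobin) with 1.20, Fam43a with 1.12, Dnase1l2 with 1.08, a second Cd36 probe set with 1.02, Mrap with 0.97, Apoc1 (an apolipoprotein) with 0.95 and Orm1 (an acute phase protein) with 0.86. Dgat2, the last step of triglyceride synthesis, had a gap of 0.55, Scara5 a gap of 0.56 and a second Acly probe set a gap of 0.63. The same count of probe sets below all others was 6 and 18 in mutants 2 and 3, 41, 16 and 6 in heterozygotes 1 to 3, and 90, 2 and 32 in wild-type 1 to 3, so mutant 1 was not the array with the most such probe sets.

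Several fat genes, chosen after their values were seen, had a low value in mutant 1 and values in mutants 2 and 3 within or above the wild-type range. Dgat2 read 769.9, 1554.8 and 1943.0 in mutants, 1312.0, 1936.8 and 1455.2 in heterozygotes, and 1152.1, 1369.0 and 2014.6 in wild-type mice. Gpd1, which makes glycerol phosphate for triglyceride, read 108.2, 279.9 and 383.6 in mutants, 231.8, 371.6 and 178.6 in heterozygotes, and 194.6, 243.8 and 364.2 in wild-type mice. Me1, malic enzyme, read 699.6, 1620.8 and 1373.7 in mutants, 1310.7, 1842.4 and 943.1 in heterozygotes, and 1228.5, 1143.6 and 1263.3 in wild-type mice. Their log2 differences between mutants and wild-type were -0.14, -0.17 and -0.05 with all arrays, and 0.22, 0.25 and 0.27 without mutant 1, none past the adjusted p in limma.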
